A study of Mus musculus with 12 samples.

Results

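The Hox genes of the mouse are 39 homeobox genes that lie in 4 clusters, and they were followed here through lists of N6-methyladenosine (m6A) peaks of lung RNA. All genes named Hox with a cluster letter and a paralogue number were taken, with or without a peak, which gave 39 of the 21900 genes that RefSeq lists as protein-coding. A paralogue number gives a gene's place along its cluster, and genes of the same number in different clusters are the closest relatives. The list for ovalbumin (OVA) mice held 21 peaks assigned to 14 Hox genes, and the list for control (PBS) mice held 17 peaks assigned to 11.

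The mice were female BALB/c animals of 6 to 8 weeks. The OVA group was sensitized with ovalbumin in aluminum hydroxide on days 0 and 7 and breathed an aerosol of 3% ovalbumin for 30 min a day from day 14 to day 20, a model of allergic asthma, while the control group was injected with PBS alone and breathed PBS. Lung was taken on day 21 from 3 mice of each group. By the paper's methods, this followed a test of airway response to nebulized methacholine on the same day, and lavage fluid was collected too. Whether each sequenced mouse took that test is not stated. Every mouse gave an IP library, enriched for methylated fragments by an antibody to m6A, and an input library that skipped this step. The authors deposited 1 peak list per group, so no value belongs to a single mouse and no difference between the lists has a replicate check. Fold enrichment here means how many times more IP than input signal a peak held, as the peak caller gave it. The lists hold no read counts, so the depth behind each peak is unknown and for a gene with no peak, low expression and low methylation cannot be told apart.

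Hox proteins are transcription factors that give cells their position along the head-to-tail axis of the embryo. Genes of low paralogue number are used towards the head and those of high number towards the tail and in the limbs. In the lung, Hox genes of the A and B clusters are known from the mesenchyme, and Hoxa5 is needed for the airways to form normally. m6A is a methyl mark set on mRNA by the Mettl3 and Mettl14 complex, often near stop codons and in 3′ UTRs.

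The lung label was checked by which marker genes carried an assigned peak. Of 9 lung epithelial markers, 8 had a peak in each list, and the highest fold enrichment belonged to Foxj1, a factor of ciliated cells, with 15.8 for OVA and 17.3 for PBS. Sftpc, the surfactant gene of alveolar type II cells, had no peak in either list. Of 8 mesenchymal markers, 5 had a peak in the OVA list, against 6 in the PBS list, and 7 did in each by the gene on which the caller placed the peak, named the called gene below. Tbx4 and Tcf21 were highest in the OVA list by assigned gene, with 17.3 and 17.1, and Pdgfrb by called gene, with 42.1. Among PBS peaks Pdgfra was highest by assigned gene, with 18.3, and Tbx5 by called gene, with 24.2. The endothelial markers had an assigned peak for 3 of 4 in both lists and the leukocyte markers for 2 of 5. By called gene these were 4 of 4 and 3 of 5, beside 52.0% (OVA) and 50.5% (PBS) of all protein-coding genes. The epithelial, heart and mesothelial counts were equal under both namings. Heart, striated muscle and mesothelial markers differed between the lists. Of 6 heart and striated muscle genes, 5 had a peak in the PBS list and 2 in the OVA list, and Myh6, Myh7 and Tnnt2 were the 3 found in the PBS list only. Their highest fold enrichment was that of Ttn, the titin gene, with 22.6 for OVA and 10.6 for PBS, and Actn2 had no peak in either. Of 3 mesothelial genes, Upk3b and Msln had a peak in the PBS list and none did in the OVA list. Where the RNA of these genes came from, and whether that source had a part in the Hox peaks, was not tested.

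Hox genes with a peak made up 35.9% of the 39 in the OVA list, beside 47.5% of all protein-coding genes. The PBS share was 28.2%, beside 46.1%. A peak is assigned to the gene with the nearest transcript start, but a separate column names the gene model on which it was called. By the gene on which the peak was called, 15 Hox genes had a peak in the OVA list, against 13 in the PBS list, or 38.5% and 33.3%, beside 52.0% and 50.5% of all protein-coding genes. Hox genes thus carried a peak less often than protein-coding genes at large under both ways of naming, as a description of these lists.

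The genes with a peak all had a paralogue number of 8 or lower. Of the 23 genes numbered 1 to 8, 15 had a peak called on them in the OVA list, against 13 in the PBS list. These are 65.2% and 56.5%, beside 52.0% and 50.5% of all protein-coding genes. By assigned gene they were 14 and 11, or 60.9% and 47.8%, beside 47.5% and 46.1%. The PBS shares thus lay near those of all genes. Of the 16 genes numbered 9 to 13, none had a peak in either list, by assigned or by called gene. They are Hoxa9, Hoxa10, Hoxa11 and Hoxa13, Hoxb9 and Hoxb13, Hoxc9, Hoxc10, Hoxc11, Hoxc12 and Hoxc13, and Hoxd9, Hoxd10, Hoxd11, Hoxd12 and Hoxd13, genes known from the hind part of the trunk, the limbs and the urogenital tract. The clusters differed as well. In the A cluster on chromosome 6, every gene from Hoxa2 to Hoxa7 had a peak called on it in both lists. In the B cluster on chromosome 11, 7 of 10 genes had one in the OVA list, Hoxb2 to Hoxb8, and 6 in the PBS list, where Hoxb7 was missing. The C cluster on chromosome 15 had a single gene with a peak, Hoxc4, in the OVA list only. The D cluster on chromosome 2 had none among its 9 genes. The genes numbered 8 or lower that had no peak under either naming were Hoxb1, Hoxc5, Hoxc6, Hoxc8, Hoxd1, Hoxd3, Hoxd4 and Hoxd8.

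The gene a peak was assigned to was not always the gene it was called on. Of the 21 OVA peaks assigned to a Hox gene, 4 had been called on another gene, and of the 17 PBS peaks, 2 had. The other gene was a Hox neighbour each time. Over all peaks with a symbol for the called gene, the names differed for 23.6% in the OVA list, against 23.9% in the PBS list, a larger share than the 19.0% and 11.8% of Hox peaks. Hoxa3 shows the effect, since no peak was assigned to it, although a peak in its 3′ UTR was called on it in both lists and assigned to Hoxa2. In the accounts of single Hox genes that follow, a peak is given under the gene on which it was called, while counts over all Hox peaks and the other gene lists use the assigned gene unless the called gene is named. Positions are those of GRCm38, counted from 1.

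In the A cluster, Hoxa2, which patterns the branchial arches, had 1 peak in its 3′ UTR in each list. The OVA peak, at 52162683 to 52163452, had a fold enrichment of 6.12, and the PBS peak, at 52162713 to 52163393, had 13. The PBS value was 2.12 times the OVA value, the widest gap towards PBS when the highest peak of each list was taken at every shared Hox stretch. Hoxa3, a gene of thymus and parathyroid formation, had its 3′ UTR peak at 52169870 to 52170468 with an OVA fold enrichment of 10.6. The PBS peak on the same stretch had 12.2. Hoxa4, at 52189818 to 52190438 in the OVA list, also had a single 3′ UTR peak, with 8.51 beside 9.08 in the PBS list. The values of Hoxa3 and Hoxa4 were nearly equal between the lists.

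Hoxa5, the Hox gene best known from the lung, had the peak with the lowest FDR of all Hox peaks in both lists. That peak was annotated as 5′ UTR, and ran from 52204111 to 52204557 in OVA mice and as far as 52204587 in controls. Its log10 FDR was -163 for OVA and -251 for PBS, with fold enrichments of 15.9 and 12.2. Each list held a weaker peak in the last exon, whose fold enrichment was 3.42 for OVA and 2.83 for PBS. A further peak close to the end of the gene, at 52201843 to 52201962, was found in the PBS list only, with 2.28. The fold enrichment of Hoxa5 was thus highest at the start of the transcript and lowest at its end.

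Hoxa6 had a peak in both lists that was assigned to Hoxa5 by the nearest start, annotated as exon 2 in the OVA list and as 3′ UTR in the PBS list. The OVA peak lay at 52206375 to 52206521 and had 17.5, beside 12.8 for PBS. The only peak assigned to Hoxa6 by name was another one, in exon 1 of the OVA list, with a fold enrichment of 2.01 and a log10 FDR of -1.17. It is the single Hox peak with an FDR above 0.05. Hoxa7, the last gene of the cluster with a peak, had a 3′ UTR peak at 52215599 to 52215869 with 7.22 for OVA, beside 5.86 for PBS.

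**Figure D1:**
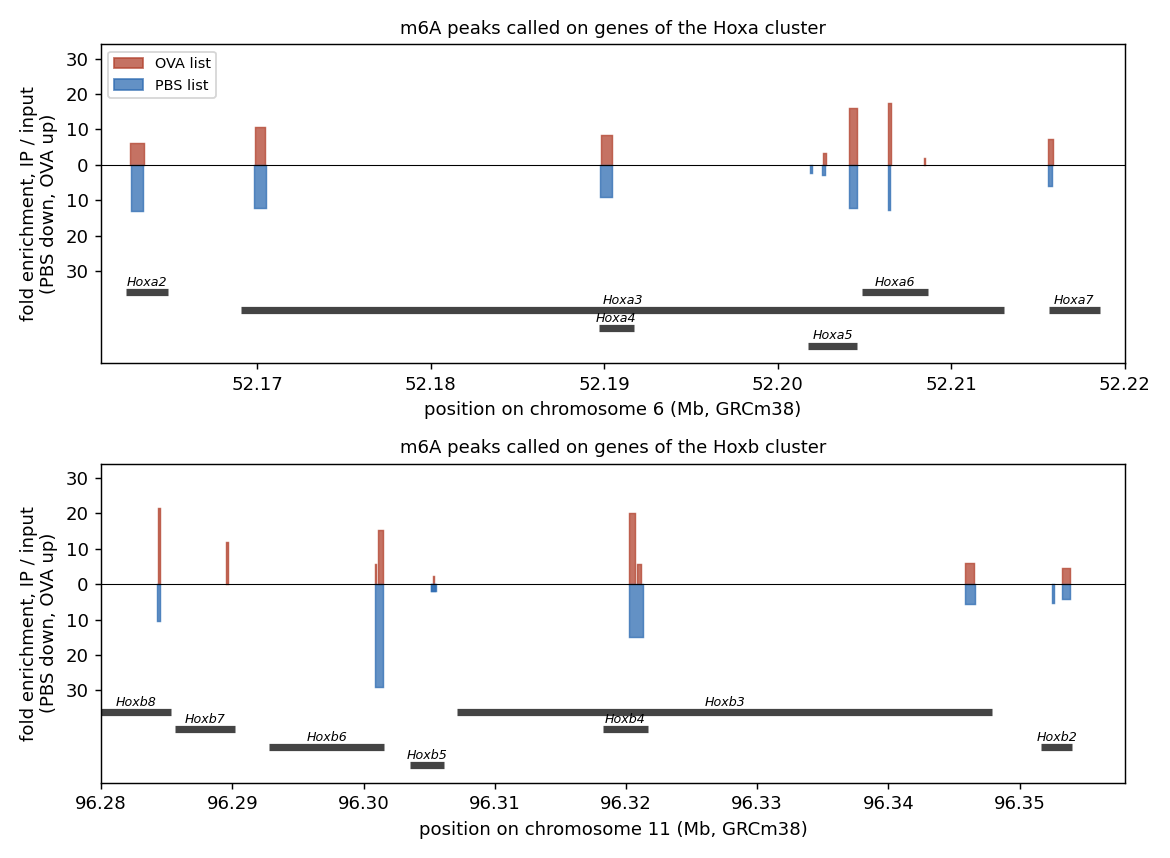
Peaks called on genes of the A cluster (top) and the B cluster (bottom) are drawn at their position in Mb (horizontal axis), with fold enrichment of IP over input upwards for the OVA list and downwards for the PBS list, and grey bars are the RefSeq spans of the genes. Most peaks face a peak of the other list, and the single PBS peaks on Hoxb6 and Hoxb4 face 2 OVA peaks each. The map of the A cluster starts before Hoxa2.

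In the B cluster, Hoxb8 had a 3′ UTR peak in both lists, with the highest fold enrichment of the OVA Hox peaks, 21.6, beside 10.4 in the PBS list. The OVA value was 2.08 times the PBS value, the widest gap towards OVA. Its log10 FDR was only -5.47 and -4.01. Hoxb7 had a peak in the OVA list only, at 96289480 to 96289687, with a fold enrichment of 11.8. The transcript assigned to that Hoxb7 peak is annotated as a processed transcript.

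Hoxb6 had the highest fold enrichment of all Hox peaks, 29.1, in a PBS peak at 96300885 to 96301510. In the OVA list the same stretch held 2 peaks, with 5.78 and 15.4. The higher of these was assigned to a Hoxb5 transcript with a retained intron, at a distance of -1886 bp from its start, although it was called on Hoxb6. Hoxb5, which acts in branching of the embryonic airways, had on its own account only a weak 3′ UTR peak, with 2.15 in the OVA list. There the PBS list had 2 peaks that overlap each other, with 1.95 and 2.03. The highest OVA value of Hoxb5 was thus 15.4 by assigned gene and 2.15 by called gene.

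Hoxb4, known from blood stem cells, had OVA peaks of 20.2 and 5.56 in its 3′ UTR, and the second was assigned to Hoxb3. A single PBS peak of 14.8 covered both, at 96320206 to 96321280, and with 1075 bp it was the widest Hox peak. Hoxb3 itself had a 3′ UTR peak of 5.99 for OVA and 5.56 for PBS, at 96345835 to 96346493 and 96345865 to 96346613. Hoxb2, a hindbrain gene, had a 3′ UTR peak of 4.44 for OVA and 4.19 for PBS. A second Hoxb2 peak, in the exon at 96352432 to 96352581, was found in the PBS list only, with 5.43. Hoxc4, of the C cluster, had its only peak in the OVA list, in the 3′ UTR at 103036046 to 103036136, with 5.90 and a log10 FDR of -1.74.

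Most Hox peaks had a counterpart in the other list, as peaks at large did. Of the 21 OVA peaks, 18 overlapped a PBS Hox peak by at least 1 bp, beside 80.6% of all OVA peaks that overlapped a PBS peak. With an overlap of 50% of both peaks, 11 of the 21 did, beside 68.6% of all OVA peaks. Of the 17 PBS peaks, 15 overlapped an OVA Hox peak, beside 85.5% of all PBS peaks. At 50% of both peaks 11 of the 17 did, beside 71.7%. When peaks that overlap within or between the lists were joined, the Hox peaks formed 19 loci, of which 14 were in both lists. That is 73.7%, beside 69.6% of all loci. The loci in 1 list only were those on Hoxb7, Hoxc4 and the first exon of Hoxa6 in the OVA list and those on the end of Hoxa5 and the exon of Hoxb2 in the PBS list. The larger number of OVA peaks thus came in part from splitting, since at 3 loci several OVA peaks faced 1 PBS peak, and at 1 locus, on Hoxb5, the PBS list had more.

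The median fold enrichment of the Hox peaks was 7.22 in the OVA list, beside 5.59 over all its peaks, and 15 of 21 lay above that list's median. For the PBS list it was 9.08, beside 5.44, and 11 of 17 lay above. Between the lists, with the highest peak of each assigned gene, 3 of 11 Hox genes were more than 2 times apart, beside 14.8% of all genes with a peak in both lists. They were Hoxb5, with 7.59 times the PBS value in the OVA list, Hoxb6, with 5.03 times the OVA value in the PBS list, and Hoxb8. By called gene they were 2 of 13, Hoxa2 and Hoxb8, beside 14.6% of all genes. The called OVA value of Hoxb5 was 1.06 times its PBS value, and the called PBS value of Hoxb6 was 1.89 times its OVA value. The large ratios of Hoxb5 and Hoxb6 by assigned gene thus both rested on 1 OVA peak that was called on Hoxb6 and assigned to Hoxb5.

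Locus by locus, 2 of the 14 shared Hox loci were more than 2 times apart, beside 12.5% of all shared loci, and they were the 3′ UTR peaks of Hoxa2 and Hoxb8. The OVA value was the higher at 9 of the 14, beside 61.4% of all shared loci, and the PBS value at 5. The median ratio of OVA over PBS was 1.07, beside 1.10 over all shared loci. Fold enrichments of the Hox genes lay about as close between the lists as those of other loci.

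By the lists' own annotation, 14 of 21 OVA Hox peaks lay in a 3′ UTR, or 66.7%, beside 52.7% of all OVA peaks. Among PBS peaks 14 of 17 did, or 82.4%, beside 52.7%. The sets compared differ in transcript type. Protein-coding transcripts were assigned to 19 of the 21 OVA and all 17 PBS Hox peaks. Over all peaks they were assigned to 11419 of 27292 in the OVA list and 11088 of 26102 in the PBS list. The labels could differ on a shared stretch, since the last-exon peaks of Hoxa5 and Hoxa6 were called exon in the OVA list, against 3′ UTR in the PBS list. Both edges of these peaks differed between the lists, and the cause of the different labels was not tested. The strongest Hoxa5 peak was annotated as 5′ UTR in both lists. Each Hox peak was a single block with no intron inside, beside 75.9% of all OVA peaks and 78.6% of all PBS peaks.

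The 5′ UTR peak of Hoxa5 is the single Hox peak that reached into the first 50 transcribed bases of any of the 24 Hox promoters in the RefSeq table, which cover 22 of the genes. In the PBS list it covered all 50 bases and in the OVA list 20. The sequence below shows its edge, transcribed bases 21 to 50 on the minus strand of chr6:52204538-52204567 (RefSeq, GRCm38.p6), and the capitals mark the 20 bases that lie in the peaks of both lists.
Hoxa5: agtgcacgagTTTACCTCTAGAGGTCATCA
The motif GGAC, the motif GAAC, the motif AGAC and the motif AAAC, each followed by any base but guanine, the common core of m6A sites, were searched on the transcribed strand of the 50 bases only, and there was no match. Of the same 50 bases of all 32851 promoters in the table, 44.6% held a match.

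The Hox clusters also hold genes without a protein product. RefSeq places 33 other genes in or beside the clusters, 26 of them lncRNAs and 6 miRNAs, and 3 lncRNAs had a peak called on them in the OVA list, against 2 in the PBS list. Of all RefSeq lncRNAs, matched by symbol, 5.95% had one in OVA mice and 5.58% in controls. None of the 6 miRNA genes, Mir10a, Mir10b, Mir196a-1, Mir196a-2, Mir196b and Mir615, had one. Hoxaas2, an RNA gene next to Hoxa2 whose RefSeq span overlaps that of Hoxa3, had its strongest OVA peak at 52165704 to 52167722, where fold enrichment was 13.3, and its strongest PBS peak at 52165733 to 52167722, with 4.30. 5730596B20Rik had 1 peak in the OVA list, with 3.72, and Gm29430, an antisense gene at Hoxa4 that only the lists name, had 2 peaks in the PBS list, with 2.69 and 2.70.

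Hoxb3os, the antisense gene of Hoxb3, had 2 peaks in each list that lay on those of Hoxb3 and Hoxb2. In the OVA list they had 5.90 and 4.11, beside 5.99 for Hoxb3 and 4.44 for Hoxb2, and shared 655 and 621 bp with them. The PBS peaks had 7.01 and 4.33, beside 5.56 and 4.19. One of the Gm29430 peaks shared 166 bp with the PBS peak of Hoxa4. The libraries were made with a protocol that keeps strand, by marking and removing one cDNA strand, but whether mapping and peak calling used strand is not given in the sources used here. Unless they did, the reads of Hoxb3, Hoxb2 and Hoxa4 cannot be told apart from those of their antisense genes. Of the 19 Hox loci, 13 meet the span of a noncoding RefSeq gene, among them Hoxaas3 at Hoxa5 and Hoxa6 and Hoxb5os at Hoxb5 and Hoxb6. Hox genes overlap each other as well. The RefSeq span of Hoxa3 holds those of Hoxa4, Hoxa5 and Hoxa6, and that of Hoxb3 holds Hoxb4. Whether their exons overlap was not tested.

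Partners and regulators of Hox proteins were counted by assigned gene, beside 47.5% (OVA) and 46.1% (PBS) of all protein-coding genes, and no difference was tested. Of 9 TALE cofactors, the homeodomain proteins that bind DNA with Hox proteins, 8 had a peak in each list, or 88.9%. The gene without one was Pbx3 by assigned gene and Pbx4 by called gene. The highest fold enrichments by assigned gene were those of Pbx2, with 30.8, and Meis3, with 15.4, in the OVA list and of Meis2, with 18.8, and Meis3, with 18.3, in the PBS list. By called gene Meis3 had only 2.22 and 1.92, and Pknox2 was the highest of the PBS list, with 19.2. The 6 ParaHox and caudal genes, the nearest relatives of Hox outside the clusters, had no peak, as was the case for Hox genes numbered 9 to 13.

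Of 22 Polycomb genes, which keep Hox genes silent, 19 had a peak in each list, or 86.4%, and 21 and 20 did by called gene. Ring1 and Cbx6 were highest in the OVA list, with 46.7 and 44.8, and Cbx2 in the PBS list, with 31.1. Of 9 trithorax-type genes, which keep Hox genes active, 7 had a peak in each list, or 77.8%, and 9 and 8 did by called gene. Kmt2b was highest in both, with 50.7 and 35.4, before Kdm6b, with 20.3 and 18.6. Of 17 retinoic acid genes, the signal that turns on Hox genes in the embryo, 9 had a peak in each list, or 52.9%, near the share of all genes. Rdh10, an enzyme of retinoic acid synthesis, was highest in both, with 33.9 and 38.5, followed by Aldh1a1 with 23.1 in the OVA list and Rara with 15.4 in the PBS list.

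The gene families set beside Hox had a peak on a larger share of their members under both namings, a difference that was not tested. Of 17 Klf genes, a family of zinc finger factors, 12 had an assigned peak in the OVA list, against 13 in the PBS list, and 14 had a called peak in each. Klf2 was highest in both by assigned gene, with 29.5 and 21.9, followed by Klf4 with 25.3 and Klf13 with 19.6. By called gene Klf9 was highest in both, with 37.1 and 32.2. Of 58 clustered protocadherins, adhesion proteins that like Hox genes lie in arrays, 49 had an assigned peak in the OVA list, against 52 in the PBS list, while 57 and 56 had a called peak. Pcdhga2 and Pcdhb18 were highest in the OVA list, with 60.6 and 55.4, and Pcdhb20 and Pcdhb14 in the PBS list, with 38.5 and 33.6. By assigned gene the median fold enrichment was 5.03 and 4.54 for Klf peaks and 8.67 and 9.02 for protocadherin peaks, beside 7.22 and 9.08 for Hox peaks.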

How the data were processed

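Lung RNA of 3 OVA and 3 PBS mice gave 6 IP and 6 input libraries, 12 in all. The authors trimmed reads with FASTP, mapped them with HISAT2, used exomePeak for peak calling and ChIPseeker for annotation, and deposited 2 peak lists. How the mice of a group were combined is not given in the sources used here. Fold enrichment, a ratio of IP to input signal, was computed by the authors' caller and used as deposited. Significance was deposited as a score, the log10 of the p value and of the FDR. Widths and distances are in bp. Deposited starts count from 0, since 442 OVA peaks on the plus strand start 1 base before a transcript start and 16 start on it (PBS, 422 and 17), so 1 was added.

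Here, peaks were taken by assigned gene name and by called gene, and compared by overlap of exonic blocks of at least 1 bp. Peaks that overlapped were joined into loci. Alternatives were an FDR under 0.05 or 0.01, a fold enrichment of at least 2, protein-coding transcripts only, the called gene, other overlap rules and another ratio. No test was run, since each list pools its mice. Hox genes were named with their peaks, and of each other list the 2 genes with the highest fold enrichment were named, except for items that are not reported here, and further genes were named after their values were seen. The members and lists were chosen with earlier results of these data known. The joining into loci was chosen after seeing the data. Python 3.11.15, pandas 2.3.3, numpy 2.4.6 and matplotlib 3.10.9 were used, and the overlap code was tested on simulated data.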

Additional observations from a re-analysis of the deposited data

How the results depend on the processing

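The counts of Hox genes and peaks stayed within 1.5 times their value under every alternative run, with 12 to 15 genes in the OVA list and 11 to 13 in the PBS list. The count that moved further was that of OVA peaks with an overlapping PBS peak, which fell from 18 to 11 when 50% of both peaks had to overlap. The share of all OVA peaks fell as well under that rule, from 80.6% to 68.6%, and the cause was not tested. The median fold enrichment of OVA Hox peaks was 7.87 with an FDR under 0.05, 8.51 with an FDR under 0.01 and 6.12 with protein-coding transcripts only. That of PBS Hox peaks was 9.74 with a fold enrichment of at least 2. Hox genes more than 2 times apart numbered 4 when overlapping peaks were compared pair by pair, 2 after dividing by the median ratio of all pairs and 2 by called gene, the last chosen after seeing the data. No paired analysis was possible because each list pools its mice and the results come from no test. Leaving out single mice was not possible for the same reason. The lists give no depth per peak, so a missing Hox peak cannot be told apart from a lowly expressed gene.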
